A study of Mus musculus with 4 samples.

Results

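Schlafen genes are a rodent-expanded family that was first described in developing T cells. Slfn2 is known to hold T cells in quiescence, and mice that carry the elektra mutation of Slfn2 have T cells that leave the resting state and die when they are activated. The family includes short members such as Slfn1 and Slfn2, members of intermediate length such as Slfn3 and Slfn4, and long members such as Slfn5, Slfn8 and Slfn9, which have a helicase-like C-terminal domain. Several members are interferon-inducible, and Slfn4 is best known from myeloid cells. Here 7 Schlafen genes, Slfn1, Slfn2, Slfn3, Slfn4, Slfn5, Slfn8 and Slfn9, were taken by symbol from the 24984 genes of a nascent RNA table, and all 7 were found. Of these, 6 had a mean of at least 1 CPM (fragments of a gene scaled to the total of its library) and entered the comparison together with the other genes at that level, 11625 genes in all; Slfn4 did not. The symbols of 4 other genes also begin with Slfn, namely Slfn10-ps, Slfn14, Slfn5os and Slfnl1, and these are described separately.

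The data are TTchem-seq, in which cells are pulsed with 4-thiouridine (4sU) and the labelled, newly made RNA is fragmented, enriched and sequenced. The cells were CD4+CD8+ double positive (DP) cells of the thymus, a stage at which T cell precursors rearrange the T cell receptor alpha chain, and had been kept in fresh medium for 0.5 h before labelling, and how they were purified for these libraries is not given in the sources used here. The wild-type (WT) group had the genotype Tox4;F/F and the conditional knockout (cKO) group the genotype Tox4;F/F;Lck+, with 2 libraries each. Both groups therefore carried the floxed Tox4 allele, in which exons 4 to 6 are flanked by loxP sites, on a C57BL/6 background, and the cKO group also carried Cre under the proximal Lck promoter, which acts from the DN3 stage onwards, before cells become DP. WT mice had no Cre, so effects of Cre itself and of Tox4 loss cannot be told apart. The study states that it used gender-matched littermates of 6 to 8 weeks. The study describes the replicates of its genomic analyses as biological, how many mice went into a library was not given, and the p-values measure the spread between these libraries.

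The libraries held between 38429786 and 48690591 fragments. Tox4, the deleted gene, had 74.0 and 70.3 CPM in WT and 59.3 and 57.2 CPM in cKO. Its log2 fold change was -0.31 (SE 0.0998) with an adjusted p of 0.0453 from DESeq2. The call was lost with edgeR (adjusted p = 0.153), limma voom (0.143), a replicate block in DESeq2 (0.361) and total count size factors (0.0511), and without any one library. The fragments were counted over the whole gene, of which only exons 4 to 6 and the DNA between them are removed. The DP marker Cd4 was high in every library (621 to 715 CPM). WT replicate 1 stood apart in Xist, the noncoding RNA of the inactive X chromosome, with 172 CPM against at most 2.36 CPM in the other 3 libraries. Only the WT group thus held a library with that signal, so the groups may not have been matched for sex. This was not tested.

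The 7 genes lie together on chromosome 11, at chr11:82952102-83215154 (GRCm38), a span of 263 kb. Slfn5, Slfn2, Slfn1, Slfn4 and Slfn3 are on the plus strand, and Slfn9 and Slfn8 lie next to each other on the minus strand between Slfn5 and Slfn2. Slfn2, the gene on which the results below turn, occupies chr11:83065112-83070678 and consists of 2 exons and 1 intron, with 29.9% of its 5567 bp exonic. Its 250 bases upstream (chr11:83064862-83065111, plus strand, RefSeq start on GRCm38.p6) are shown because Slfn2 was the Schlafen gene that passed the test, with capitals for a run of 9 bases that recurs upstream of Slfn1, Slfn3 and Slfn4.
Slfn2 upstream: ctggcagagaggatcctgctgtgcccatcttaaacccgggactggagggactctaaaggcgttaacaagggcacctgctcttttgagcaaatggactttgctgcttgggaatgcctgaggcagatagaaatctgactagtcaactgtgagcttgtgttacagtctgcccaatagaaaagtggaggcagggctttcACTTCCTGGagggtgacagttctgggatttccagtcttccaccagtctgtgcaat

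The same run stood at positions -74 to -66 of Slfn1, -55 to -47 of Slfn2, -42 to -34 of Slfn3 and -73 to -65 of Slfn4, counted back from the first base of each gene, which is +1. The windows below (GRCm38.p6, all on the plus strand) are chr11:83116722-83116778 for Slfn1, chr11:83191264-83191320 for Slfn3 and chr11:83175089-83175145 for Slfn4, with the run in capitals. They are shown so that the upstream DNA of genes with unlike values can be set against that of Slfn2.
Slfn1: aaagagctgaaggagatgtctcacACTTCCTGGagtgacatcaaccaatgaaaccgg
Slfn3: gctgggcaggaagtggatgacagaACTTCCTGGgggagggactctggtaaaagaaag
Slfn4: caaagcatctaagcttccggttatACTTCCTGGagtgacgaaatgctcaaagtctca

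This run was found after the upstream sequences of the family had been read, and it was searched on both strands of the 250 bases upstream of 27025 genes. It occurred in 224 of them (0.829%). It contains TTCC, the opposite-strand reading of the GGAA core that ETS family proteins recognise, but a match is a description of letters and not a binding site. The run extends further in some pairs, to 12 bases in Slfn1 and Slfn2 and to 15 bases in Slfn1 and Slfn4. Among the genes with the run, Slfn2 had the highest and Slfn4 the lowest signal of the family. Slfn3 lay above WT in cKO cells but did not pass the test, and Slfn4 had too few fragments for a fold. The part of the run in level or direction was not tested.

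Slfn8 and Slfn9 share a longer stretch of upstream DNA. The windows (GRCm38.p6, minus strand) are chr11:83020855-83020922 for Slfn8 and chr11:82991872-82991939 for Slfn9, and capitals mark a run of 20 bases, at -88 to -69 of Slfn8 and -85 to -66 of Slfn9. They are shown because, of the listed members, these copies shared the most sequence with other Schlafen genes, as given below.
Slfn8: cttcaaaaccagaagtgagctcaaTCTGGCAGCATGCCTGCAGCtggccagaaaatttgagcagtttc
Slfn9: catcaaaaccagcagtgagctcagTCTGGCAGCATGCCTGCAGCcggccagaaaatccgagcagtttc

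Of the 27025 genes, 2 (0.0074%) held this run, Slfn8 and Slfn9 themselves. The letters GAAA, any 2 bases, GAAA, the core of the interferon-stimulated response element, were present on either strand upstream of Slfn5, Slfn8 and Slfn9, and of 936 genes (3.46%) in all. They were not in the windows of Slfn1, Slfn2, Slfn3 and Slfn4. Windows of 50 bases that recur exactly in another Schlafen gene made up 10.6% of Slfn9, 6.31% of Slfn8, 2.84% of Slfn4, 1.48% of Slfn3, 1.25% of Slfn2, 0.19% of Slfn1 and 0.0157% of Slfn5. Among these genes Slfn9 and Slfn8 thus shared the most sequence with other Schlafen genes, and Slfn1 and Slfn5 the least. The windows were compared only within the family, and how shared reads were assigned is not given in the sources used here. Slfn5 is also overlapped on the other strand by Slfn5os, and whether strand was used in counting is not given.

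DP thymocytes transcribed the Schlafen genes at very unequal levels. Per kb of gene, the signal of Slfn2 was 25.6 and 27.2 CPM per kb in WT and 20.3 and 19.8 CPM per kb in cKO. Slfn1 followed at 5.22 and 4.34 CPM per kb in WT and 4.02 and 3.41 CPM per kb in cKO. The other 5 genes were all below 1.1 CPM per kb in every library. Slfn2 was above 98.0% of the 11625 genes on this scale, on which the median gene had 1.46 CPM per kb.

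The order Slfn2, Slfn1, Slfn8 was the same in all 4 libraries, and Slfn4 was last in all 4. Slfn3, Slfn5 and Slfn9 lay between, at means of 0.566, 0.434 and 0.313 CPM per kb over the 4 libraries. These neighbours were not separated beyond their spread, since Slfn5 was ahead of Slfn3 in WT replicate 1 and Slfn9 ahead of Slfn5 in cKO replicate 1. Slfn2 alone gave 62.6% to 72.2% of the summed CPM of the 7 genes.

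**Figure D1:**
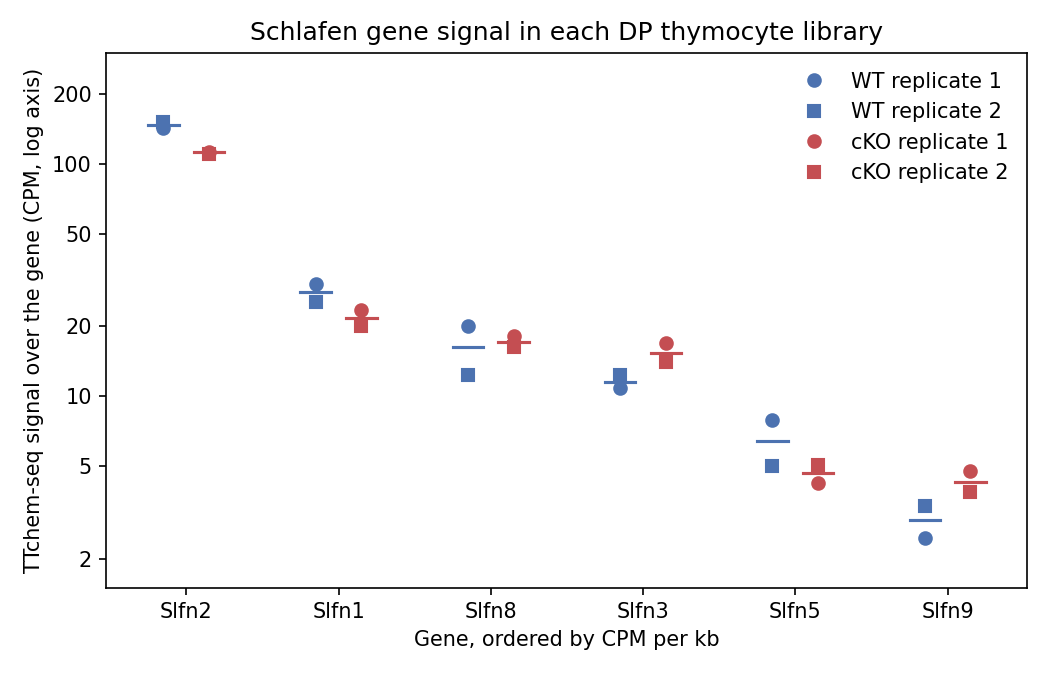
TTchem-seq signal of the 6 Schlafen genes with a mean of at least 1 CPM, in CPM on a log axis, with 1 point for each library, circles for replicate 1, squares for replicate 2 and bars for the group means (n = 2 each, WT blue, cKO red). Slfn2 lies at 143 and 151 CPM in WT and at 113 and 110 CPM in cKO, without overlap, while the points of Slfn5 and Slfn8 overlap between genotypes.

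Slfn2, the quiescence factor, was lower in Tox4 cKO cells. Its CPM values were 143 and 151 in WT and 113 and 110 in cKO, from 6085, 7376.5, 4333 and 4384 fragments. Both cKO libraries lay below both WT libraries, and the gap between the groups was wider than the spread within either. The means were 147 ± 6.18 CPM in WT and 112 ± 1.76 CPM in cKO (SD, n = 2 each), and the log2 fold change was -0.40 (SE 0.0859, 95% interval -0.57 to -0.23, DESeq2 adjusted p = 0.000272), a signal 24.4% lower in cKO. Slfn2 therefore fell by the criteria used, namely a mean of 1 CPM or more, a change of 1.2-fold or more and an adjusted p under 0.05. In all, 106 genes had a smaller DESeq2 p.

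The call of Slfn2 varied with the tool and with the genes tested. After its default filter on low counts, edgeR gave the same log2 fold change of -0.40 with an adjusted p of 0.0709, and limma voom gave an adjusted p of 0.0606, so neither called it, while edgeR after a filter of 1 CPM on the mean and edgeR without a filter did (adjusted p = 0.0473 and 9.27e-05). Its direction was the same without any one library, at -0.45 without WT replicate 1, the library that stood apart in Xist, and -0.35 without WT replicate 2, where it was called (DESeq2 adjusted p = 0.00574 and 0.0450), and at -0.41 and -0.39 without cKO replicate 1 and cKO replicate 2, where it was not (adjusted p = 0.126 and 0.203).

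Slfn1, the other short member and the family's founding gene, had 30.5 and 25.4 CPM in WT and 23.5 and 20.0 CPM in cKO. Both cKO libraries were below both WT libraries, but by a gap no wider than the spread within the groups. Its log2 fold change of -0.36 (SE 0.155, 95% interval -0.67 to -0.06) did not pass the test (DESeq2 adjusted p = 0.204), and it was -0.24 without WT replicate 1, where that of Slfn2 was -0.45. Slfn1 had 794 to 1301 fragments a library, fewer than Slfn2.

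Slfn3, the intermediate member at the far end of the cluster, lay the other way. It had 10.8 and 12.3 CPM in WT and 16.9 and 14.0 CPM in cKO. Both cKO libraries were above both WT libraries, at means of 11.5 ± 1.05 and 15.4 ± 2.05 CPM (SD, n = 2 each). The log2 fold change was 0.41 (SE 0.190, 95% interval 0.04 to 0.79) and did not pass the test (DESeq2 adjusted p = 0.272). Exons make up 7.62% of its 23825 bp, so most of the counted sequence of Slfn3 is intronic.

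Slfn4, the neighbour of Slfn3, was at or near 0. It had 2 and 1.5 fragments in WT and 0 and 1 in cKO, and the count of 0 in cKO replicate 1 allows up to 0.0781 CPM. No fold is given, since both groups were at or below 3 fragments a library. Slfn4 is a myeloid gene, and the 14 myeloid markers listed summed to 30.3 to 36.7 CPM in a library, most of it from Cst3 (13.4 to 16.0 CPM) and Cd68 (5.50 to 9.21 CPM), with Lyz2 at 0.312 to 1.34 CPM.

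Of the long, helicase-like members, Slfn5 had 7.86 and 4.99 CPM in WT and 4.24 and 5.06 CPM in cKO, with overlap between the groups. Its log2 fold change was -0.47 (SE 0.303, 95% interval -1.06 to 0.13, DESeq2 adjusted p = 0.538), which became -0.11 without WT replicate 1, the library apart in Xist, and -0.75 without WT replicate 2. Slfn8 had 20.0 and 12.3 CPM in WT and 18.1 and 16.2 CPM in cKO. Both cKO values lay between those of WT, and the log2 fold change was 0.08 (SE 0.214, 95% interval -0.34 to 0.50, DESeq2 adjusted p = 0.925). It became 0.46 without WT replicate 1 and -0.22 without WT replicate 2.

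Slfn9, the neighbour and nearest copy of Slfn8, had 2.46 and 3.38 CPM in WT and 4.74 and 3.85 CPM in cKO, from 105 to 182 fragments a library. The groups did not overlap, but the interval of its log2 fold change included 0 (0.55, SE 0.345, 95% interval -0.12 to 1.23, DESeq2 adjusted p = 0.512). The fold change became 0.34 without WT replicate 1, the library apart in Xist, and 0.80 without WT replicate 2. The fall of Slfn2 by 0.40 on the log2 scale lay inside the interval of Slfn5 and outside those of Slfn8 and Slfn9, while a rise of the same size lay inside those of Slfn8 and Slfn9 and outside that of Slfn5.

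**Figure D2:**
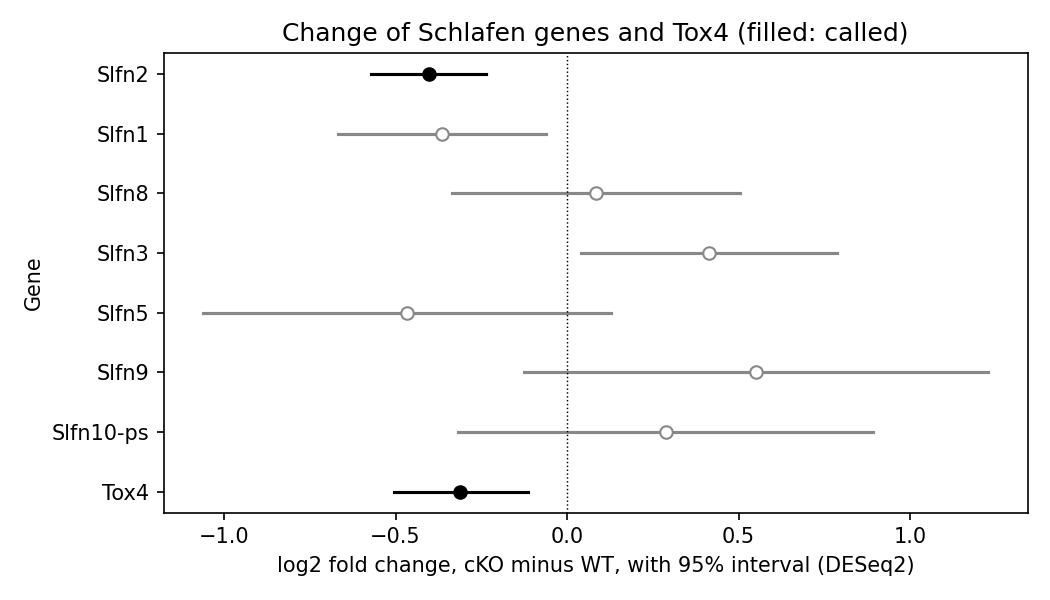
DESeq2 log2 fold change, cKO minus WT, of the 6 Schlafen genes with a mean of at least 1 CPM, of Slfn10-ps and of Tox4, with lines for the 95% interval and filled points for genes called. Slfn2 (-0.40) and Tox4 (-0.31) are the filled points, and Slfn2 has the narrowest interval of the Schlafen genes (SE 0.0859).

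In all, 1 of the 6 genes, Slfn2, was called decreased, beside 1.57% of the 11625 genes of that level. None was called increased, beside 2.14% of genes, and at an unadjusted DESeq2 p under 0.05 there were 1 higher (Slfn3), beside 7.20% of genes, and 2 lower (Slfn1 and Slfn2), beside 6.31%. edgeR called 0 of the 6 decreased, beside 0.0860% of genes, with the same genes at an unadjusted p under 0.05. Both cKO libraries lay below both WT libraries in 2 of the 6 (Slfn1 and Slfn2), where 24.0% of genes did so, and above in 2 (Slfn3 and Slfn9), where 24.9% did, so these shares were near those of all genes. The median log2 fold change of the 6 was -0.14, beside 0.00 over all 11625 genes, with 3 genes higher and 3 lower.

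The summed signal of the 7 genes followed Slfn2. It was 214.4 and 209.9 CPM in WT and 180.3 and 169.3 CPM in cKO, with both cKO libraries below both WT libraries and a cKO to WT ratio of the means of 0.824. Without Slfn2 the sum was 71.7 and 58.4 CPM in WT and 67.5 and 59.0 CPM in cKO. These values overlapped, at a ratio of 0.972.

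Ratios of CPM between members within a library do not depend on library size. Slfn2 had 13.2 and 12.3 times the CPM of Slfn3 in WT and 6.69 and 7.90 times in cKO, without overlap. Slfn1 had 2.83 and 2.07 times the CPM of Slfn3 in WT and 1.40 and 1.43 times in cKO, again without overlap. In contrast, the ratio of Slfn2 to Slfn1 was 4.68 and 5.96 in WT and 4.79 and 5.52 in cKO, so that both cKO values lay between those of WT. As Slfn2 and Slfn1 lay lower and Slfn3 higher in both cKO libraries, the lack of overlap in ratios to Slfn3 follows from those values. These ratios are descriptions and were not tested.

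**Figure D3:**
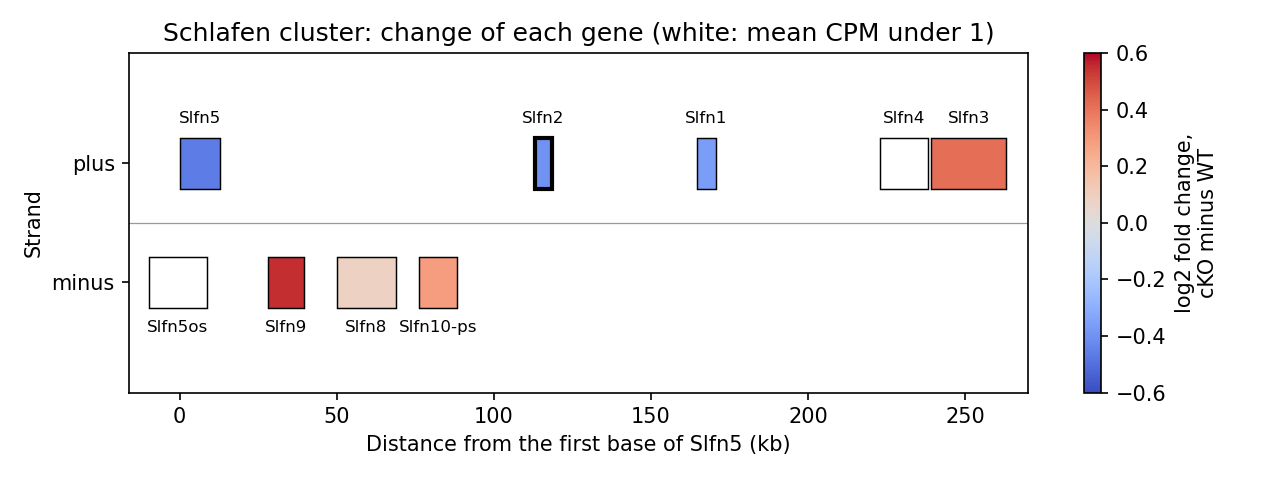
Map of the Schlafen cluster on chromosome 11, to scale in kb from the first base of Slfn5, with genes above or below the line by strand and coloured by log2 fold change, cKO minus WT (white for a mean under 1 CPM, thick outline for a gene called). Slfn2 and Slfn1 are blue (-0.40 and -0.36), as is Slfn5 (-0.47), Slfn3 and Slfn9 are red (0.41 and 0.55), and Slfn2 is the gene with a thick outline.

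The other genes in and around the cluster gave no call. Slfn10-ps, a pseudogene between Slfn8 and Slfn2, had 3.59 and 3.84 CPM in WT and 4.89 and 4.20 CPM in cKO. Both cKO libraries were higher (log2 fold change 0.29, SE 0.309, DESeq2 adjusted p = 0.781), and 9.22% of its 50-base windows recur in other Schlafen genes. Slfn5os, which overlaps Slfn5 on the other strand, had at most 12 fragments in a library, Slfn14 at most 9, and the microRNA gene Mir7679 at most 3. Slfnl1, a Schlafen-like gene on chromosome 4, had 3.59 to 4.74 CPM with overlap between the groups (0.15, adjusted p = 0.901).

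On the Slfn5 side, the nearest genes were Unc45b, Nle1 and Fndc8. Nle1, a ribosome biogenesis factor 43.7 kb away, had 520 and 488 fragments in WT and 325 and 380 in cKO (log2 fold change -0.30, SE 0.214, DESeq2 adjusted p = 0.584). Unc45b and Fndc8 had at most 8 fragments in a library. On the Slfn3 side, AI662270 had 9.81 to 12.8 CPM (0.13, adjusted p = 0.861) and AA465934 had 5.75 to 6.78 CPM (0.19, adjusted p = 0.834). Of the genes in and beside the cluster, then, Slfn2 was the one called.

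The genes whose pattern over the 4 libraries was most like that of Slfn2 were found by the root mean square distance of log2(CPM + 0.5), centred for each gene, among 8152 other genes with a mean of at least 10 CPM. They were Ldhb, a lactate dehydrogenase subunit, at a distance of 0.0115, Itga6, integrin alpha 6, at 0.0117, and Actb, beta-actin, at 0.0211. Ldhb had 79.0 and 83.3 CPM in WT and 61.2 and 61.1 CPM in cKO, and Itga6 had 72.5 and 77.1 CPM in WT and 58.4 and 56.2 CPM in cKO. As these genes were picked for likeness to Slfn2, their lower values in both cKO libraries follow from the selection. Each was called, with DESeq2 adjusted p = 0.00175 for Ldhb, 0.00581 for Itga6 and 4.99e-05 for Actb. For the same reason these calls are no separate result. Likeness over 4 libraries is a description.

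Other known regulators of T cell quiescence lay on both sides of 0. Of 24 such genes, all with a mean of at least 1 CPM, 9 were higher and 15 lower in cKO, and 3 fell by the same criteria, beside 1.57% of all genes, with none called increased, beside 2.14% (at an unadjusted DESeq2 p under 0.05, 1 was higher and 5 were lower, beside 7.20% and 6.31% of all genes, and edgeR called 0 either way). The median log2 fold change of the list was -0.04. The 3 were Dgka, a diacylglycerol kinase that limits T cell receptor signalling (444 and 412 CPM in WT, 337 and 332 CPM in cKO), Btg2, an antiproliferative mRNA deadenylation factor (368 and 436 CPM, 335 and 313 CPM), and Zfp36, an mRNA decay factor (102 and 109 CPM, 78.7 and 89.8 CPM). In each of them both cKO libraries were below both WT libraries, at log2 fold changes of -0.36, -0.31 and -0.33 (DESeq2 adjusted p = 0.000122, 0.0200 and 0.0317), sizes near that of Slfn2. The list's genes of highest CPM, the transcription factors Foxp1 and Ets1, were not called (-0.02 and 0.16, adjusted p = 0.943 and 0.213).

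Genes of the interferon pathway, which is known to induce Schlafen genes, were also listed. Of 44 interferon-stimulated genes and regulators, 38 had a mean of at least 1 CPM, 23 were higher and 15 lower, and the median log2 fold change was 0.09. Over all 44, 29 were higher and 15 lower, with none of the 6 genes under 1 CPM lower. DESeq2 called 0 of the 38, beside 2.14% of all genes called increased and 1.57% decreased, a count near that background, and edgeR called 0. At an unadjusted DESeq2 p under 0.05, 2 were higher and 3 lower, beside 7.20% and 6.31% of all genes. Sp100, a nuclear body protein, had 254 and 229 CPM in WT and 259 and 261 CPM in cKO (log2 fold change 0.10, DESeq2 adjusted p = 0.646).

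Markers of the cell types the samples could hold were set beside the fall of Slfn2. Fewer cells of a type and less RNA per cell cannot be told apart in these libraries. Of 9 markers of mature single positive thymocytes, 2 rose, beside 2.14% of all genes, and 3 fell, beside 1.57%. edgeR called 0 of them, with adjusted p-values of 0.0782 to 0.197 for the genes that DESeq2 called. Il7r was among those higher (log2 fold change 0.36), and Ccr7, Gimap4 and Gimap6 were lower (-0.34, -0.50 and -0.29), with a list median of -0.29 (Klf2, 1 of the 9, is also in the quiescence list) and a summed level of 760 and 733 CPM in WT and 710 and 619 CPM in cKO. The summed level thus moved in the direction of Slfn2, by a gap narrower than the spread within either group. Its part in the fall of Slfn2 was not tested. Of 11 DP markers, 5 were higher and 6 lower in cKO. None was called increased, beside 2.14% of all genes, and 2 fell, beside 1.57%. These were Cd8a (-0.54, DESeq2 adjusted p = 1.21e-05) and Rag1 (-0.31, adjusted p = 0.04995, at the threshold), and edgeR called neither (adjusted p = 0.108 and 0.291). Themis and Arpp21, the DP list's genes of highest CPM, were higher in both cKO libraries (log2 fold changes 0.19 and 0.18). Neither was called (DESeq2 adjusted p = 0.1018 and 0.3535). The summed level of the DP list was 6260 and 7100 CPM in WT and 6960 and 6550 CPM in cKO, with overlap.

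The 14 myeloid markers summed to 36.7 and 32.0 CPM in WT and 31.3 and 30.3 CPM in cKO. Both cKO libraries lay below both WT libraries, but, unlike for Slfn2, by a gap narrower than the spread within WT. Of these, 6 had a mean of at least 1 CPM, 4 of them higher and 2 lower (median log2 fold change 0.26), and none was called (1 was lower at an unadjusted DESeq2 p under 0.05, and edgeR called 0). None of the 14 was at 0 in all libraries. The other 8 markers, under 1 CPM, were all lower in cKO, and 3 of the 14 were lower at an unadjusted DESeq2 p under 0.05, beside 6.31% of the genes with a mean of at least 1 CPM, namely Lyz2 (1.34 and 1.21 CPM in WT, 0.312 and 0.679 CPM in cKO), Spi1 (1.10 and 1.05 CPM, 0.260 and 0.402 CPM) and Siglech (2.37 and 1.21 CPM, 0.416 and 0.729 CPM), with none higher at that p. The part of these markers in the fall of Slfn2 was not tested. The 8 B cell markers summed to 18.3 to 25.9 CPM, with overlap between the groups and 0 calls by DESeq2 and edgeR (1 was higher at an unadjusted DESeq2 p under 0.05). The 7 erythroid markers summed to at most 0.805 CPM and the 7 stromal and thymic epithelial markers to at most 1.38 CPM in a library, with Psmb11, which defines cortical thymic epithelium, at 0 in all 4.

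**Figure D4:**
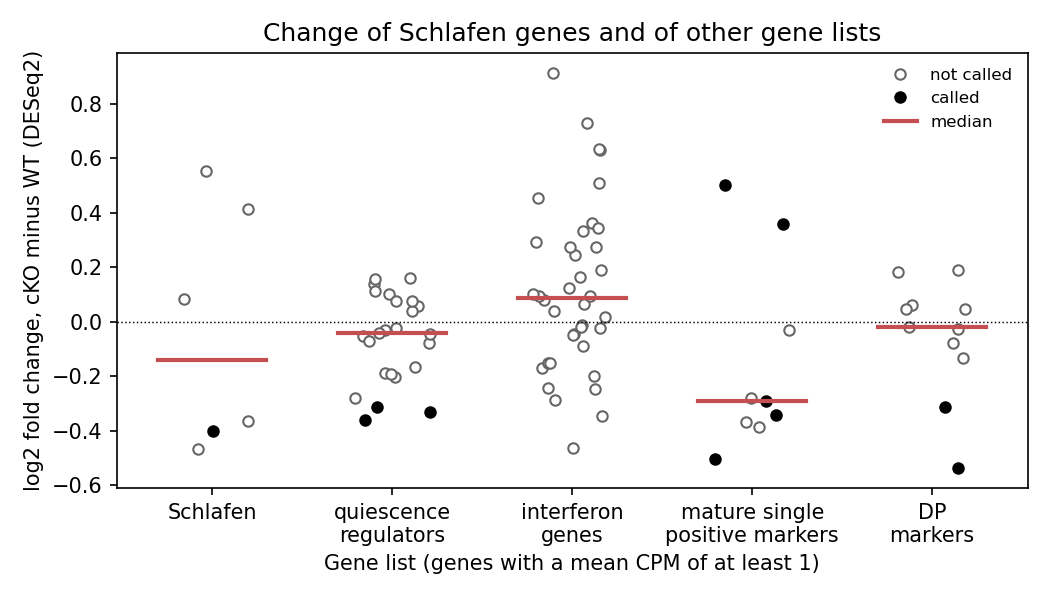
DESeq2 log2 fold changes, cKO minus WT, of genes with a mean of at least 1 CPM in 5 lists, with filled points for genes called and red bars for list medians. The median is -0.14 for the 6 Schlafen genes, -0.04 for 24 quiescence regulators, 0.09 for 38 interferon genes, -0.29 for 9 mature single positive markers and -0.02 for 11 DP markers, and no interferon gene is filled.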

How the data were processed

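TTchem-seq of DP thymocytes was analysed in 2 WT and 2 cKO libraries, grouped by sample title. Per the submitters' processing notes and the methods, the authors filtered reads with fastp 0.13.1, aligned them with STAR 2.7.9a to GRCm38 (mm10) and counted over RefGene genes; the methods take the gene counts from the STAR output and the notes also name featureCounts 1.6.1, so the sources differ on the tool, and how fractions were assigned and whether strand was used for the table are not given in the sources used here. The labels describe polyA capture and the methods rRNA depletion of 4sU-enriched RNA. The deposited table holds expected counts of fragments per gene, introns included, of which 8.61% of values are fractional. The other deposited column used was gene length in bp. Yeast spike-in was not used.

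Expected counts were rounded to whole numbers and tested with DESeq2 1.42.0 (Wald test, default size factors, unshrunken log2 fold changes, independent filtering at 0.1, R 4.3.3), fitted to all 24984 genes with Benjamini-Hochberg adjustment. The methods name DESeq2 and the criteria for a call, and the rounding, the genes fitted and the filtering were chosen here. Genes were called at a mean of 1 CPM or more, a change of 1.2-fold or more and an adjusted p under 0.05. CPM was computed from library totals of 42626473, 48690591, 38429786 and 39760312 fragments (WT replicates 1 and 2, cKO replicates 1 and 2). Replicates differed by more than counting noise (chi-square per degree of freedom 40.7 in WT and 30.7 in cKO). No molecular identifiers were described, so the limit of 3 fragments for a count of 0 covers counting error only.

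Alternatives were edgeR 4.0.16 (quasi-likelihood test after filterByExpr), limma 3.58.1 voom, other size factors, filters, fold thresholds and rounding, a replicate block and leaving out each library. Scripts were tested on simulated data. Upstream sequences came from RefSeq tables for GRCm38.p6 and matched all 7 genes. Python 3.11.15, pandas 2.3.3, numpy 2.4.6 and matplotlib 3.10.9 were used.

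The genes named are the 7 members, Tox4, other genes with a Slfn symbol, the 3 nearest genes on each side and those within the cluster, the 3 genes most like Slfn2, and, in each list, those called and the 2 of highest CPM; Cd4, Lyz2, Spi1, Siglech, Psmb11, Klf2, Xist and Rn45s were added as checks of cell type and library after their values were seen. Some genes under this rule are not reported here. The members and lists were chosen with earlier results of these data known.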

Additional observations from a re-analysis of the deposited data

How the results depend on the processing

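The direction of Slfn2, Slfn1, Slfn3, Slfn5, Slfn9 and Tox4 was the same under all alternatives run, and the number of Schlafen genes called increased was 0 under each. The number called decreased was 1 in the DESeq2 analysis and 0 with edgeR, with limma voom, with a fold change of at least 1.5 and with edgeR and a replicate block, and 0 to 1 when a library was left out (0 without cKO replicate 1 and without cKO replicate 2). For Slfn2 the log2 fold change was -0.40 with each of these tools (adjusted p = 0.0709 with edgeR, 0.0606 with limma voom and 0.134 with edgeR and the block) and -0.45 to -0.35 without 1 library. Chosen after seeing the data, edgeR with a mean of at least 1 CPM required before the fit and edgeR without a filter gave Slfn2 adjusted p-values of 0.0473 and 9.27e-05, so its edgeR call depended on which genes were tested; the cause was not tested further. When 1 library was left out, Slfn1 ranged from -0.49 to -0.24 and Slfn3 from 0.28 to 0.54. Leaving out WT replicate 1 gave 0.46 for Slfn8, -0.11 for Slfn5 and 0.34 for Slfn9, and leaving out WT replicate 2 gave -0.22, -0.75 and 0.80, which were the ends of their ranges. Tox4 passed in the DESeq2 analysis but not with edgeR (-0.31, adjusted p = 0.153), limma voom (-0.31, 0.143), total count size factors (-0.31, 0.0511), independent filtering off (-0.31, 0.0821), a fold change of at least 1.5 (-0.31), a replicate block in DESeq2 (-0.31, 0.361) or edgeR (-0.31, 0.232), edgeR with a mean of at least 1 CPM (-0.31, 0.122) or without a filter (-0.31, 0.0527), or without 1 library (-0.34 to -0.28); the cause was not tested. Same-numbered libraries did not deviate together over genes (correlation -0.03), and the numbers were not taken to pair them, although the rRNA precursor Rn45s differed by number in both genotypes (27100 and 24400 CPM in replicates 1 of WT and cKO, 43000 and 40500 CPM in replicates 2); with the replicate block DESeq2 still called Slfn2 (-0.40, adjusted p = 0.0296), and calls over all genes went from 249 increased and 182 decreased to 121 and 72. Over all genes edgeR called 48 increased and 10 decreased, limma voom 50 and 11, edgeR with the block 19 and 9, edgeR with a mean of at least 1 CPM 59 and 17, edgeR without a filter 458 and 319, and DESeq2 106 and 44 at the stricter fold threshold. Leaving out WT replicate 1 gave 113 and 71, WT replicate 2 320 and 126, cKO replicate 1 78 and 48, and cKO replicate 2 61 and 28. Slfn4, Slfn5 and Slfn9 had at most 335 fragments in a library, and how depth and replicate spread share in their intervals was not tested.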
